A study of Mus musculus with 2 samples.

Results

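The genes that modify and fold newly made collagen chains in the endoplasmic reticulum (ER) were measured in extraembryonic endoderm stem (XEN) cells, which model the primitive endoderm of the mouse blastocyst in culture. The group was fixed by gene symbol and holds 10 genes of the 26127 in the deposited expression table. They are the prolyl 4-hydroxylase genes P4ha1, P4ha2 and P4hb, the lysyl hydroxylase genes Plod1, Plod2 and Plod3, the collagen chaperone gene Serpinh1, and Leprel1, Leprel2 and Crtap of the prolyl 3-hydroxylase system. All 10 symbols were found. The cells were the female ICR line PS10. They were transfected by lipid reagent either with a locked nucleic acid (LNA) that targets Gata6-AS, an antisense noncoding RNA beside the endoderm factor gene Gata6, (the depleted library), or with a control LNA (the control library). The sample titles call these reagents siRNA. Each group had 1 library, so no difference has a replicate check or a p-value, and every difference compares these 2 libraries rather than the conditions. For the dose of LNA and the time after transfection, the sources used here give no value.

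Collagen chains carry hydroxyl groups that are added before the triple helix closes. Prolyl 4-hydroxylase is a tetramer of alpha subunits, which hold the catalytic site, and of the protein disulfide isomerase encoded by P4hb. Hydroxyproline at its sites gives the helix its heat stability. Lysyl hydroxylases make the hydroxylysine used for sugar attachment and crosslinks, prolyl 3-hydroxylases modify a few further prolines, and the Serpinh1 product binds the folded helix and leaves it after export from the ER. All of these hydroxylases need iron, oxygen, 2-oxoglutarate and ascorbate. In the yolk sac, parietal endoderm is known for secreting a thick basement membrane rich in type IV collagen.

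Promoter sequences are shown for the 3 genes of the prolyl 4-hydroxylase enzyme. These genes were picked by their values: the alpha subunit genes were lower and the gene of their partner subunit was at nearly the same level. The printed sequences were not tested for a part in these values. They are the 250 bases before the start that the RefSeq promoter table gives for each gene in assembly GRCm38.p6, which is not the mm9 assembly of the expression table, read 5′ to 3′ on the strand of the gene. Capitals mark the core motif of hypoxia-inducible factors (HIF), which is ACGTG or GCGTG, or the same letters read from the other strand, CACGT or CACGC; neighbouring matches can touch. The P4ha1 stretch is chr10:59323046-59323295 on the plus strand, the P4ha2 stretch chr11:54100674-54100923 on the plus strand and the P4hb stretch chr11:120573254-120573503 on the minus strand.
P4ha1: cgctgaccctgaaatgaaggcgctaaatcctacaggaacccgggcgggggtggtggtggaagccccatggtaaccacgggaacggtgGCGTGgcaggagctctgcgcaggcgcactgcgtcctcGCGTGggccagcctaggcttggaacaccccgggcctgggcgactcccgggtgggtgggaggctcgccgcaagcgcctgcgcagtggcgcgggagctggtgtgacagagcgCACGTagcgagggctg
P4ha2: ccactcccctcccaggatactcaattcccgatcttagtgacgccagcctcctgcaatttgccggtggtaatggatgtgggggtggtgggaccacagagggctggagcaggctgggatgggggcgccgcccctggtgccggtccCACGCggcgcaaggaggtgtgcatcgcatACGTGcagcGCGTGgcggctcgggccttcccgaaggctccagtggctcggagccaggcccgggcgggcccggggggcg
P4hb: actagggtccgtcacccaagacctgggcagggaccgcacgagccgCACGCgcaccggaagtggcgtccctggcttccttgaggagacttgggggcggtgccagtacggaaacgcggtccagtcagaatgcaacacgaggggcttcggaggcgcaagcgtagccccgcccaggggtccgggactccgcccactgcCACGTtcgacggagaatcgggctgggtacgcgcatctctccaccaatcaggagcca
The ACGTG form began 16 bases before the start of P4ha1, 78 bases before that of P4ha2 and 56 bases before that of P4hb. The GCGTG form began 163 and 126 bases before the start of P4ha1, 107 and 69 bases before that of P4ha2 and 205 bases before that of P4hb. RefSeq promoters were matched for 8 of the 10 genes, with Plod2 and Leprel1 unmatched. Of these 8, 7 held either form on either strand in the 250 bases, all but Leprel2, while 38.6% of all 32851 promoter entries of that length did. For ACGTG alone these were 5 of 8, namely the 3 printed, Plod3 and Serpinh1, against 16.6% of all entries. CCAAT on either strand was found in 2 of the 8, P4hb and Plod3, against 33.8% of all entries, and GGGCGG on either strand in 5 of the 8, against 32.7%. These are letter matches and not measured binding sites. The 32851 entries were not matched to the 8 for base composition or for expression. No enrichment of a motif is drawn from these shares.

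The levels are RPKM (reads per kilobase and per 1000000 reads, so that genes of unlike length can be compared), as the authors deposited them. Among genes with a short span and a value above 0, RPKM times span came in whole multiples of a fixed step for 881 of 2211 in the depleted library and 824 of 2094 in the control library. Read as the value of 1 read, this step puts the depth at 122945274 reads in the depleted library and 103562432 in the control library. For each gene, the reads behind both RPKM values were estimated at its coding length in GENCODE vM21, which leaves out the untranslated parts, and were used for exact 95% intervals. These cover counting error only. The targeted RNA, listed as 1010001N08Rik, stood at 5.83 RPKM in the depleted library and 10.1 RPKM in the control library, or 57.8% of control (50.8% to 65.6%, at the length of its shortest transcript). It shares 58 bp with Gata6 on the opposite strand, and no source used here says whether strand was used in counting, so its value may include reads of Gata6. Of the 8 XEN markers, Gata4, Gata6, Sox7, Sox17, Foxa2, Dab2, Pdgfra and Lama1, all 8 were measured at a mean of at least 1 RPKM, with a summed level of 1377 RPKM in the depleted library and 1919 RPKM in the control library. Most of these markers differed by more than the 10 genes did and not all in the same direction: Sox7 stood at 40.9% of control, Gata6 at 68.0%, Gata4 at 68.8%, Lama1 at 73.6%, Sox17 at 74.3%, Pdgfra at 77.2%, Foxa2 at 102.3% and Dab2 at 140% of control. Their part in the results below was not tested. Of 8 fibroblast feeder markers, 7 were below 1 RPKM in both libraries, 4 of them, Col3a1, Thy1, Lum and Dcn, at 0 in both. The other, Fbn1, was at 2.24 RPKM in the depleted library and 2.23 RPKM in the control library. Col1a1, Col1a2 and Col3a1 of these markers are collagen chain genes, and the part of read counting in low chain values was not tested. In a bulk sample, fewer cells of a type and less RNA per cell cannot be told apart.

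The 10 genes ranged widely in level and little between the libraries. Their RPKM spanned 2.56 to 791 in the depleted library and 2.21 to 816 in the control library. Their differences (depleted minus control) were taken on the log2(RPKM + 1) scale, where changes of low genes come out too small, and ran from -0.30 for Plod2 to 0.15 for Leprel2. Of the 10869 genes tested, those averaging 1 RPKM or more, 0.331% were higher in the depleted library by 2-fold or more and 0.451% lower (0.782% either way), and none of the 10 was. At 1.5-fold, 3.42% were higher and 1.95% lower (5.37% either way), and again none of the 10 was. A count of 0 in 10 is near both shares, so size of difference did not mark the group. By sign, 8 of the 10 lay below 0 on that scale and 2 above, against 42.0% and 58.0% of the genes tested. The median difference of the 10 was -0.16, and that of all genes tested 0.05. None of the 10 was among the 2099 genes listed in the authors' deposited table, which holds 11.9% of the genes tested. In the authors' deposited table the smallest log2 difference among genes with a log2 value of at least 4 in both libraries was 0.41 in size, on the authors' own scale.

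**Figure D1:**
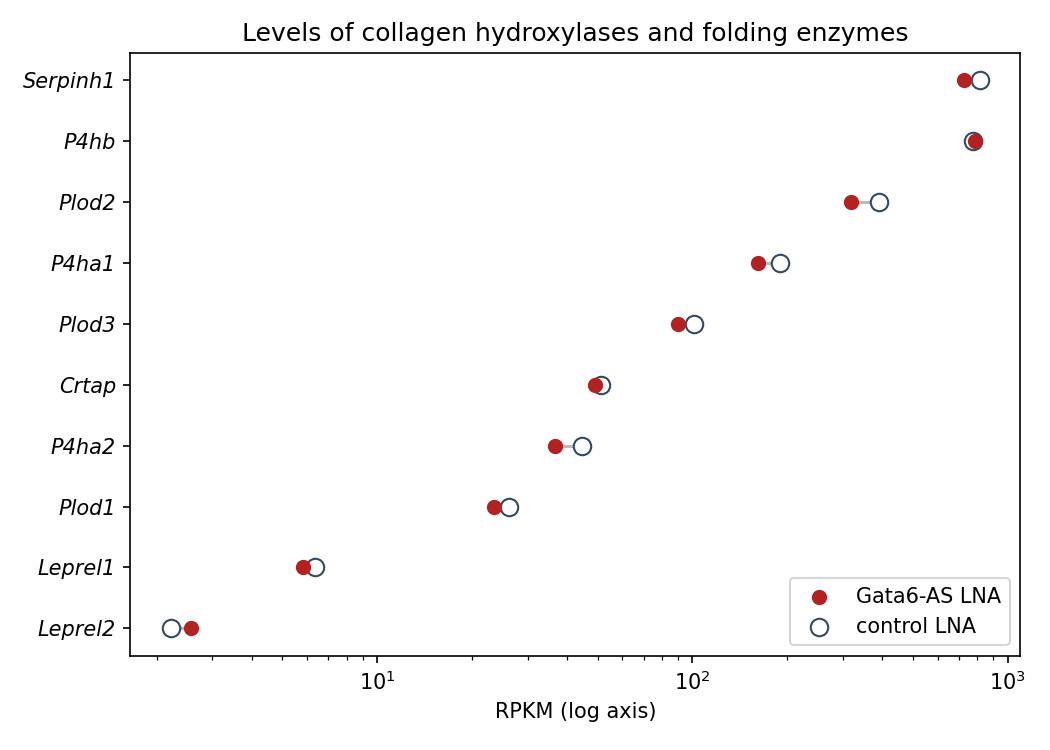
RPKM (log axis) of each of the 10 genes in the Gata6-AS LNA library (filled) and the control LNA library (open), ordered by the control level. The genes span 2.56 to 791 RPKM in the depleted library and 2.21 to 816 RPKM in the control library, and the paired points lie close together; P4hb and Leprel2 have the filled point on the right.

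The alpha subunit genes of prolyl 4-hydroxylase were lower in the depleted library and the gene of the shared subunit was at nearly the same level. P4ha1, the main alpha subunit gene here, stood at 162 RPKM in the depleted library and 190 RPKM in the control library. Its depleted level was 85.3% of control (84.0% to 86.6%), a log2 difference of -0.23. In mm9 it lies on the plus strand of chromosome 10 from 58786044 to 58836052. P4ha2, which encodes the alternative alpha subunit, stood at 36.6 RPKM in the depleted library and 44.5 RPKM in the control library. That is 82.2% of control (79.6% to 84.9%), a log2 difference of -0.28, and the gene lies on the plus strand of chromosome 11 from 53913597 to 53945167. The values of both alpha subunit genes thus stood below control by more than counting error, while the spread between cultures is unknown. Ranked among all genes tested, the difference of P4ha1 was at percentile 14.2 and that of P4ha2 at percentile 10.8.

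P4hb encodes protein disulfide isomerase, which keeps the alpha subunits soluble and also forms disulfide bonds in many other secreted proteins. It stood at 791 RPKM in the depleted library and 776 RPKM in the control library, or 102% of control (101.1% to 102.6%). Its log2 difference of 0.03 became -0.02 with the median of all genes tested set to 0 and -0.0014 with each library scaled to the same summed RPKM, so no direction can be given for it. Its mm9 span is chromosome 11, 120421612 to 120434567, minus strand. The RPKM of P4hb was above the summed RPKM of the alpha subunit genes in both libraries. The ratio of its RPKM to the summed RPKM of P4ha1, P4ha2 and P4ha3 was 3.96 in the depleted library and 3.30 in the control library. P4ha3, a further alpha subunit gene that is not among the 10, was at 0.968 RPKM in the depleted library and 0.765 RPKM in the control library. Within the alpha subunit genes, P4ha1 made up 81.2% of the summed RPKM in the depleted library and 80.7% in the control library, while P4ha2 made up 18.3% in the depleted library and 18.9% in the control library. The make-up of the alpha subunits was therefore nearly the same in both libraries, while their summed level was 199.6 RPKM in the depleted library and 235 RPKM in the control library.

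All 3 lysyl hydroxylase genes were lower in the depleted library, Plod2 by the largest amount. Plod2 encodes the enzyme known for hydroxylating lysines in the telopeptides, the short ends of the chains where crosslinks form. It stood at 318 RPKM in the depleted library and 392 RPKM in the control library, which is 81.1% of control (80.3% to 81.8%). Its log2 difference of -0.30 was the lowest of the 10 genes and lay at percentile 9.21 of all genes tested. Plod3, whose product also has glycosyltransferase activity and is known to be needed for basement membrane collagen, stood at 90.03 RPKM in the depleted library and 101 RPKM in the control library. That is 89.0% of control (87.4% to 90.6%), a log2 difference of -0.17. Plod1, whose product hydroxylates lysines within the helix, stood at 23.5 RPKM in the depleted library and 26.2 RPKM in the control library. Its depleted level was 89.8% of control (86.6% to 93.0%), a log2 difference of -0.15. The intervals of Plod1 and Plod3 overlap, and that of Plod2 lies below both.

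Plod2 held most of the lysyl hydroxylase RPKM. Its share of the summed RPKM of the 3 genes was 73.7% in the depleted library and 75.5% in the control library, while that of Plod3 was 20.9% in the depleted library and 19.5% in the control library. Plod1 held 5.45% in the depleted library and 5.05% in the control library. In mm9, Plod2 lies on the plus strand of chromosome 9 from 92437061 to 92503266, Plod1 on chromosome 4, minus strand, from 147283862 to 147310876, and Plod3 on the plus strand of chromosome 5 from 137462889 to 137472518. The Plod3 span shares 1003 bp with Znhit1 on the opposite strand, which was at 18.8 RPKM in the depleted library and 20.4 RPKM in the control library. Since no source used here says whether strand was used in counting, the value of Plod3 may include reads of Znhit1.

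**Figure D2:**
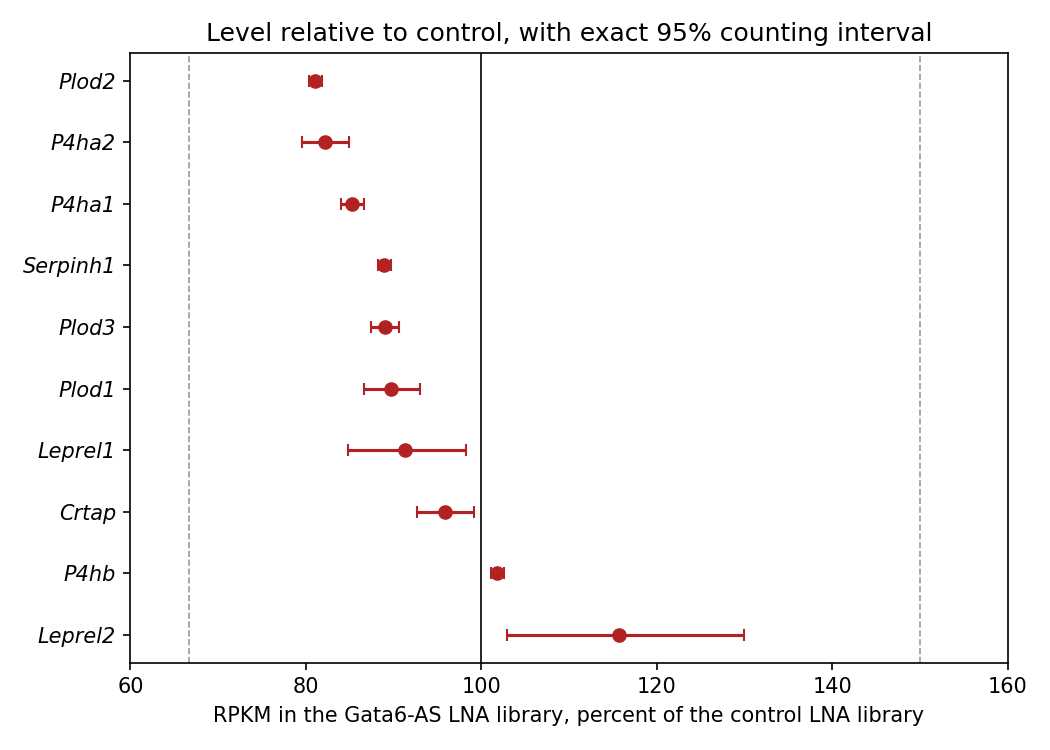
RPKM in the Gata6-AS LNA library as a percent of that in the control LNA library for each gene, with the exact 95% interval that covers counting error only; the solid line is 100% and the dashed lines are 1.5-fold lower and higher on the RPKM ratio. All 10 intervals lie inside the dashed lines. None spans 100%, but at this depth even small differences clear counting error, and the same share over all genes tested was not computed. The side of 100% on which P4hb lies changes with the scaling.

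Serpinh1, the gene of the collagen chaperone of the serpin family, was among the most abundant transcripts of the cells. It stood at 725 RPKM in the depleted library and 816 RPKM in the control library, which is 88.9% of control (88.2% to 89.7%) and a log2 difference of -0.17. It ranked 41 of all genes in the depleted library and 35 in the control library, and P4hb ranked 36 in the depleted library and 38 in the control library. The order of these leading genes thus differed: P4hb was above Serpinh1 in the depleted library and below it in the control library. The ratio of the RPKM of Serpinh1 to that of P4hb was 0.917 in the depleted library and 1.05 in the control library. Their level intervals, 721 to 729.5 RPKM for Serpinh1 and 787 to 795 RPKM for P4hb in the depleted library, and 811 to 820.5 RPKM for Serpinh1 and 772 to 781 RPKM for P4hb in the control library, did not overlap within either library. Its mm9 span is chromosome 7, 106493885 to 106501740, minus strand. Below these, Plod2, P4ha1, Plod3, Crtap, P4ha2, Plod1, Leprel1 and Leprel2 followed in the same order of RPKM in both libraries.

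Genes of the prolyl 3-hydroxylase system lay on both sides of control in the RPKM values as deposited. Crtap, whose product is the cartilage-associated protein that pairs with the enzyme of Lepre1 and the cyclophilin of Ppib, stood at 49.0 RPKM in the depleted library and 51.1 RPKM in the control library. That is 95.8% of control (92.6% to 99.1%), a log2 difference of -0.06. Its partner genes, which are not among the 10, were Lepre1 at 36.1 RPKM in the depleted library and 34.9 RPKM in the control library, and Ppib at 418 RPKM in the depleted library and 427 RPKM in the control library. Within this complex, Crtap thus stood at 95.8% of control, Lepre1 at 103.5% and Ppib at 97.8%. The log2 difference of Lepre1 was 0.05, and the median of all genes tested was also 0.05. No direction relative to all genes can therefore be given for Lepre1. The Crtap span in mm9 (chromosome 9, 114284252 to 114299793, minus strand) shares 2096 bp with 4930520O04Rik on the opposite strand, which was at 0.0782 RPKM in the depleted library and 0.0670 RPKM in the control library.

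Leprel1 and Leprel2 encode the other two prolyl 3-hydroxylases, and the Leprel1 enzyme is known to act on type IV collagen. Leprel1 stood at 5.80 RPKM in the depleted library and 6.36 RPKM in the control library, or 91.3% of control (84.8% to 98.3%), a log2 difference of -0.11. Leprel2 stood at 2.56 RPKM in the depleted library and 2.21 RPKM in the control library, or 116% of control (103% to 130.0%), a log2 difference of 0.15. This difference was 0.10 with the median of all genes tested set to 0 and 0.16 with each library scaled to the same summed RPKM. Leprel2 rests on the fewest reads of the 10, an estimated 691 in the depleted library and 503 in the control library, and has the widest interval. Lepre1 made up 81.2% of the summed RPKM of the 3 enzyme genes in the depleted library and 80.3% in the control library, Leprel1 13.0% in the depleted library and 14.6% in the control library, and Leprel2 5.75% in the depleted library and 5.09% in the control library. Leprel1 is on chromosome 16, minus strand, from 25959374 to 26105870, and 1055 bp of its span are shared with Gm4524 on the opposite strand, which was at 3.74 RPKM in the depleted library and 4.02 RPKM in the control library. The value of Leprel1 may include reads of Gm4524, since no source used here says whether strand was used in counting. Leprel2 is on chromosome 6, minus strand, from 124791107 to 124807770.

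**Figure D3:**
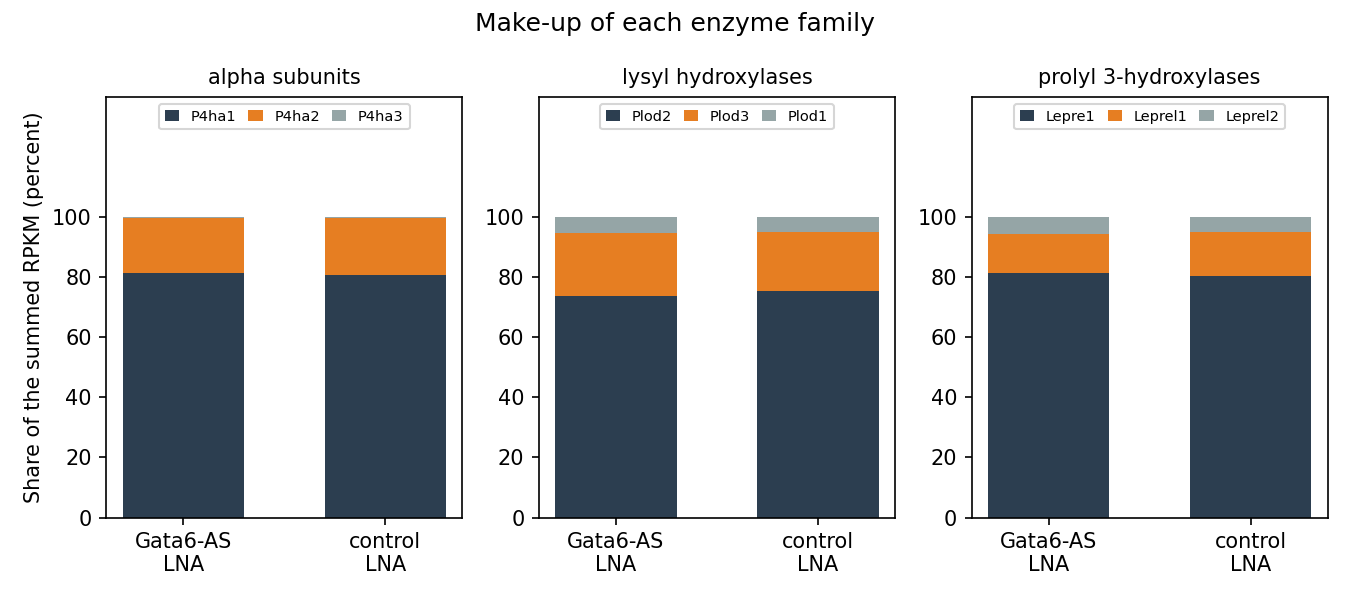
Share of the summed RPKM (percent) held by each gene of the alpha subunits of prolyl 4-hydroxylase, the lysyl hydroxylases and the prolyl 3-hydroxylases, in the Gata6-AS LNA library (left bar) and the control LNA library (right bar). The leading gene holds 81.2%, 73.7% and 81.2% in the depleted library and 80.7%, 75.5% and 80.3% in the control library.

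Other genes of collagen modification and folding were spread around the level of all genes. Of 12 listed, 8 were tested, with 4 above 0, 4 below 0, none past 1.5-fold in either direction and a median log2 difference of 0.02. The ER prolyl isomerase genes Fkbp7 and Fkbp14 had the most positive differences, Fkbp7 at 5.33 RPKM in the depleted library and 3.67 RPKM in the control library (0.44) and Fkbp14 at 1.85 RPKM in the depleted library and 1.33 RPKM in the control library (0.29). Leprel4, which encodes a relative of Crtap without enzyme activity, was at 36.5 RPKM in the depleted library and 42.4 RPKM in the control library (-0.21), and Fkbp9 was at 141 RPKM in the depleted library and 124 RPKM in the control library (0.18). The collagen export list, of ER exit coat, cargo receptor and retrieval genes, had 12 of 16 tested genes above 0, none past 1.5-fold and a median of 0.06. Its widest differences were those of the collagen cargo receptor partner Ctage5, at 14.7 RPKM in the depleted library and 19.2 RPKM in the control library (-0.36), and the coat genes Sec24d (0.33), Sec31a (0.28) and Sec24a (0.25). In the processing and crosslinking list, 6 of 14 genes were tested, with 4 below 0, none past 1.5-fold and a median of -0.14. Sparc, a collagen-binding matrix protein gene, was at 1689 RPKM in the depleted library and 2104 RPKM in the control library (-0.32), the lysyl oxidase gene Loxl2 at 170 RPKM in the depleted library and 203 RPKM in the control library (-0.26), the collagen IV crosslinking peroxidase gene Pxdn at 31.0 RPKM in the depleted library and 35.8 RPKM in the control library (-0.20), and Loxl3 at 4.92 RPKM in the depleted library and 4.08 RPKM in the control library (0.22).

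The collagen chains that these enzymes act on were listed at very low levels. Of 44 chain genes, 42 were below 1 RPKM in both libraries, and the summed RPKM of all 44 was 10.5 in the depleted library and 8.26 in the control library. Serpinh1 alone had 725 RPKM in the depleted library and 816 RPKM in the control library. Col27a1, a fibrillar chain gene, was the highest, at 4.72 RPKM in the depleted library and 2.69 RPKM in the control library, and its log2 difference of 0.63 was past 1.5-fold. In the authors' deposited table its log2 difference was 0.78. Col6a1 was at 2.19 RPKM in the depleted library and 2.36 RPKM in the control library (-0.07), and Col6a2 at 0.821 RPKM in the depleted library and 0.827 RPKM in the control library. The type IV collagen genes were Col4a2 at 0.619 RPKM in the depleted library and 0.531 RPKM in the control library, and Col4a1 at 0.168 RPKM in the depleted library and 0.0878 RPKM in the control library. In mm9, Col4a1 ends at 11312826 on the minus strand of chromosome 8 and Col4a2 starts at 11312805 on the plus strand, so their spans overlap. The part of read counting in the low values of the chain genes was not tested, and no ratio of enzyme to substrate is drawn from them.

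The relatives of the enzymes outside collagen went in mixed directions. In the list of the PDI (protein disulfide isomerase) family and ER redox genes, 14 were tested, with 9 below 0, 5 above and a median of -0.06. Pdia4, a further disulfide isomerase gene, was past 1.5-fold, at 136 RPKM in the depleted library and 89.2 RPKM in the control library (0.60). In the authors' deposited table Pdia4 had a log2 difference of 0.67. The other three of the widest differences were Tmx3 (-0.33), the oxidase gene Ero1l (-0.20) and Tmx1 (-0.20), all below 0. Among oxygen-sensing hydroxylases and HIF subunits, 7 of 9 tested genes were below 0, with a median of -0.24, and 2 were more than 1.5-fold lower, where 1.95% of all genes tested were. These were Epas1, a HIF alpha subunit gene, at 111 RPKM in the depleted library and 199.0 RPKM in the control library (-0.83), and Hif1a at 8.54 RPKM in the depleted library and 14.0 RPKM in the control library (-0.66). Egln3, a prolyl hydroxylase gene for HIF, was at 5.81 RPKM in the depleted library and 8.72 RPKM in the control library (-0.51), and Vhl, whose product marks hydroxylated HIF for decay, at 7.58 RPKM in the depleted library and 10.4 RPKM in the control library (-0.41). In the authors' deposited table the log2 difference of Epas1 was -0.90 and that of Hif1a -0.74, from the same 2 libraries. Hif3a, a further HIF alpha subunit gene, went the other way but was below a mean of 1 RPKM and so not tested, at 1.15 RPKM in the depleted library and 0.525 RPKM in the control library, or 220% of control (175% to 277%). In the authors' deposited table its log2 difference was 1.01.

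P4ha1, P4ha2 and Plod2 are known as targets of HIF. Whether HIF has a part in their differences here was not tested. The other hypoxia targets listed lay on both sides of 0. Of 18 tested, 10 were above 0 and 8 below, with a median of 0.05. Among those below 0, Egln1, Egln3 and Ero1l were also counted in the lists of the paragraph above. More than 1.5-fold higher were 3, where 3.42% of all genes tested were, and 1 was more than 1.5-fold lower. The higher ones were the glucose transporter gene Slc2a1 at 108 RPKM in the depleted library and 41.3 RPKM in the control library (1.37), the enolase gene Eno1 at 155 RPKM in the depleted library and 67.9 RPKM in the control library (1.18), and the lactate dehydrogenase gene Ldha at 160 RPKM in the depleted library and 103 RPKM in the control library (0.63). The lower one was the growth factor gene Vegfa, at 13.0 RPKM in the depleted library and 23.5 RPKM in the control library (-0.81). P4ha1, P4ha2 and Plod2, at -0.23, -0.28 and -0.30, lay between these extremes.

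**Figure D4:**
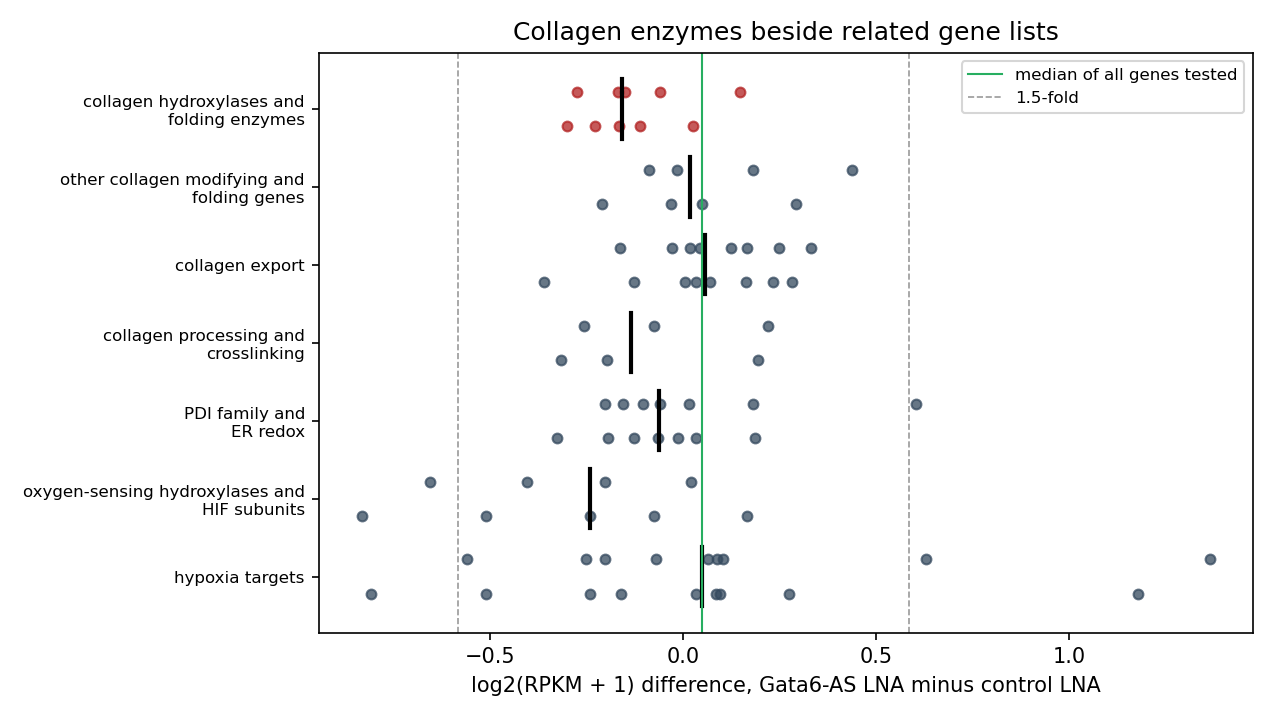
Differences of log2(RPKM + 1), Gata6-AS LNA minus control LNA, of the tested genes in the 10-gene group (red) and 6 related lists (blue); short black bars are medians, the green line is the median of all genes tested (0.05) and dashed lines are 1.5-fold. The 10 genes have a median of -0.16 and all lie inside the dashed lines, while the PDI, HIF and hypoxia lists each have genes past them.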

How the data were processed

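Total RNA of PS10 XEN cells was sequenced in 2 libraries, 1 per group, grouped by their titles. The authors deposited RPKM values of 26127 genes, per the file headers; TopHat and mm9 are named in the submitters' processing notes. The sources used here name no counting tool or annotation and do not say whether strand was used. A second table that the authors deposited holds, for 2099 genes, log2 values, the log2 difference between libraries and a p-value of up to 0.07499; no source used here describes its test, and its log2 scale is not that of the RPKM values.

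From the RPKM values, log2(RPKM + 1) differences (depleted minus control) were computed; the 10869 genes averaging 1 RPKM or more were tested against fold sizes of 2 and 1.5. No test between conditions was made, since a group has 1 library. For the same reason the authors' p-values cannot measure the spread between cultures, and none is given for a gene. The RPKM of 1 read was found from features with a span under 3000 bp (881 of 2211 above 0 in the depleted and 824 of 2094 in the control library gave whole reads within 0.0002 reads plus 1e-07 of the count; the others were not used). Reads per gene were estimated from RPKM, depth and the longest coding length in GENCODE vM21 (for a noncoding gene, the shortest transcript), rounded down, and gave exact (Clopper-Pearson) 95% intervals of ratios and exact Poisson intervals of levels. The length that the authors used is not known, so the intervals are approximate; they cover counting error only. The steps were checked on simulated libraries in which every feature with a span under 3000 bp had its span as its length. Among the deposited values only the part given above gave whole reads, so depth was checked in a simpler setting. Python 3.11.15, pandas 2.3.3, numpy 2.4.6 and scipy 1.17.1 were used.

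The 10 genes and the related lists were chosen with earlier results of these data known. Named genes were all 10, Gata6-AS, the listed markers, and in each related list the members past 1.5-fold, filled up to 4 by size of difference, with the 4 highest collagen chains; Col4a1, Lepre1, Ppib, P4ha3, Hif3a, Znhit1, Gm4524 and 4930520O04Rik were added after their values were seen. Of 170 list entries, 167 matched by symbol, 2 through RefSeq synonyms and 1, Mia3, was not matched. Embryonic stem cell markers summed to 5.13 RPKM in the depleted library and 4.68 RPKM in the control library, and trophoblast markers to 1.63 RPKM in the depleted library and 0.987 RPKM in the control library. Alternatives were other pseudocounts, scalings and filters on low values.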

Additional observations from a re-analysis of the deposited data

How the results depend on the processing

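The counts of 0 of the 10 genes past 2-fold and past 1.5-fold, in either direction, were 0 under all 6 alternatives: a pseudocount of 0.1 or 0.5 RPKM, no filter on low values, a mean of at least 5 RPKM (which leaves out Leprel2), libraries scaled to a summed RPKM of 1000000, and the median of all genes tested set to 0. The median log2 difference of the 10 genes, -0.16, was -0.21 with the median of all genes tested set to 0. It was -0.19 with each library scaled to the same summed RPKM and -0.17 with a mean of at least 5 RPKM. With either pseudocount or with no filter it stayed at -0.16. No counting interval was computed for the median. By gene, 8 of the 10 differences were below 0 with a pseudocount of 0.1 RPKM and 9 under each scaling, the added one being P4hb. With the median of all genes tested set to 0, 6 of the 10 moved by more than their counting interval reaches to either side. With each library scaled to the same summed RPKM, 5 did. P4ha1, Plod2, Plod3 and Serpinh1 were among them in both cases, so the choice of scaling can outweigh the printed intervals. No paired analysis was possible because each group has 1 library, and no library could be left out. Depth does not limit the values of these genes, which rest on an estimated 503 reads a library or more; the lack of replicate cultures does.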
